A study of Mus musculus with 7 samples.

Results

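The genes for 10 integrin subunits that bind the extracellular matrix were followed in the mouse heart after myocardial infarction (MI). They were taken by symbol as the 7 alpha subunit genes Itga1, Itga5, Itga6, Itga7, Itga8, Itga11 and Itgav and the 3 beta subunit genes Itgb1, Itgb3 and Itgb5, which are 10 of the 56980 genes in the table. Male wild-type C57BL/6J mice, obtained at 8 weeks of age and operated on after acclimation, had either the left coronary artery tied off (MI, 3 mice) or a sham operation (sham, 4 mice). Myocardial tissue was taken 4 days later and total RNA was sequenced, 1 library per mouse. No transgene, drug or deletion separated the groups. The study calls the MI tissue ischemic, and a finer position within the heart is not given in the sources used here.

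Integrins are receptors in the plasma membrane that pair 1 alpha with 1 beta subunit and link matrix proteins outside the cell to actin inside it. The alpha subunit sets most of the choice of ligand. Itga1 and Itga11 pair with Itgb1 to bind collagen, Itga6 and Itga7 make laminin receptors, and Itga5, Itga8 and Itgav make receptors for fibronectin, vitronectin and other proteins that carry the RGD peptide. Itgav can also pair with Itgb3 or Itgb5, and integrins with Itgav are known for releasing latent TGF-beta. In the heart, cardiomyocytes hold on to the laminin of their basement membrane mainly through Itga7 with Itgb1, and fibroblasts use the collagen and fibronectin receptors as scar tissue forms.

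The libraries held 19977713 to 23610870 fragments, as recovered from the steps in which the deposited FPKM values (fragment counts scaled to transcript length and to the library total) rise. One MI heart stood apart from its group. Across the tested genes, which are not independent replicates, MI replicate 2 correlated with the sham hearts at r = 0.984 to 0.987, whereas MI replicates 1 and 3 did so at 0.878 to 0.906 and with each other at 0.984. Mitochondrial genes took 26.5 to 27.4% of fragments in sham hearts and 28.2% in MI replicate 2, against 13.6% and 14.9% in MI replicates 1 and 3. The cardiomyocyte markers summed to 13589 to 14878 FPKM in sham hearts, with none of the 8 genes at 0, so the defining genes of heart muscle were present. The sum was 13537 in MI replicate 2 and 9490 and 10178 in MI replicates 1 and 3. The subunit changes are therefore given with and without MI replicate 2. In bulk tissue a lower level from fewer cells of a type and one from less RNA per cell cannot be told apart, and this holds for every value that follows.

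In sham hearts Itgb1, the common partner of most alpha subunits, had the highest level of the 10 genes, at 79.0 ± 2.73 FPKM (SD, n = 4). The laminin receptor gene Itga7 (18.1 ± 0.898 FPKM) and Itgb5 (17.6 ± 0.559 FPKM) came next, and their ranges overlapped. They were followed by Itga5 (11.8 ± 0.279 FPKM), Itga6 (5.00 ± 0.299 FPKM), Itga1 (3.83 ± 0.170 FPKM) and Itgav (2.08 ± 0.798 FPKM), whose ranges did not overlap their neighbours in the order. Itga11 (0.716 ± 0.0387 FPKM) and Itga8 (0.642 ± 0.0561 FPKM) overlapped, and Itgb3 was lowest at 0.245 ± 0.0426 FPKM. In MI hearts the order of the means was Itgb1, Itgb5, Itga5, Itga7, Itga11, Itga6, Itga1, Itgav, Itgb3 and Itga8. By these means, which MI replicates 1 and 3 carried, Itga7 was in the fourth place and not the second, and Itga11 in the fifth and not the eighth. In MI replicate 2 alone Itga7 was in the third place, above Itga5, and Itga11 was in the eighth, below Itgav. FPKM is a level per length of transcript, so genes can be set side by side on it.

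**Figure D1:**
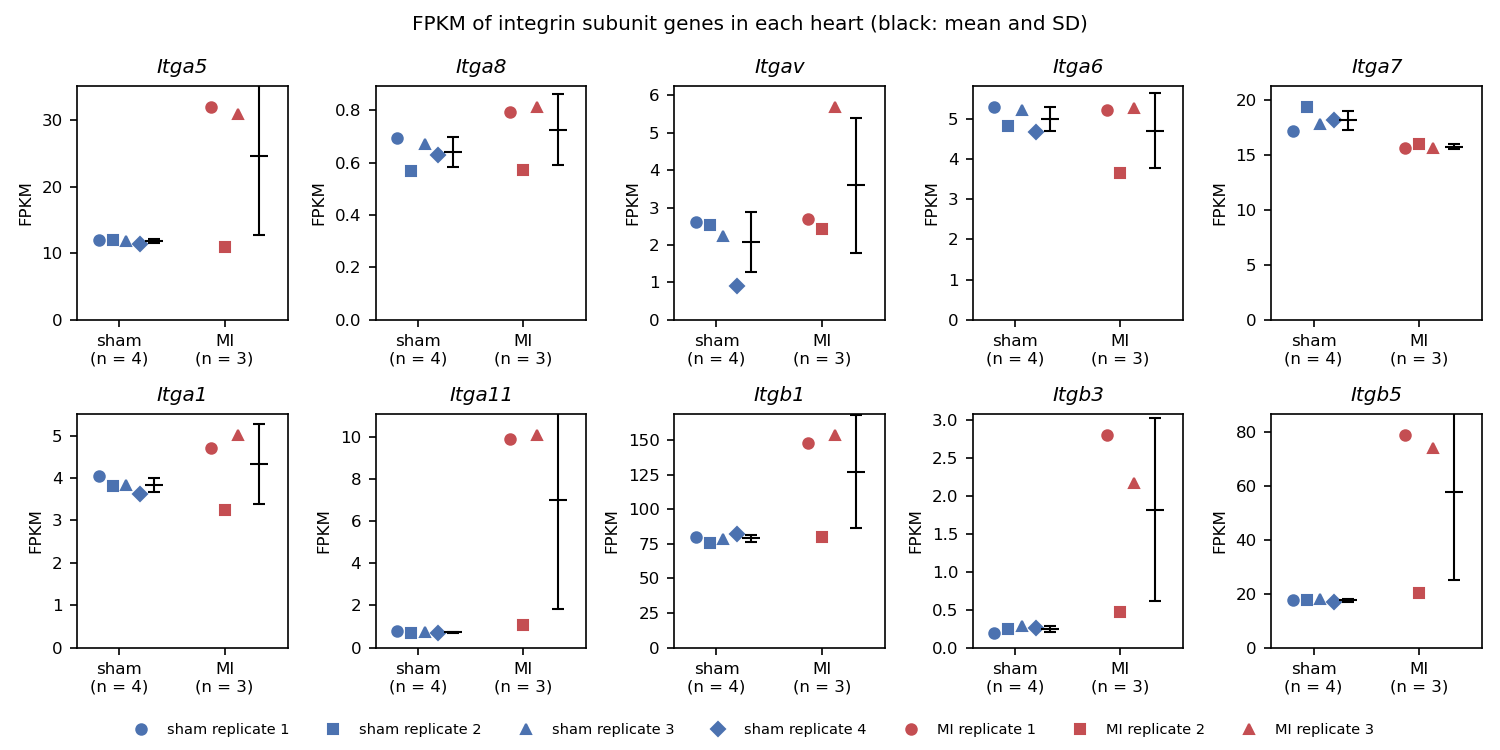
Each panel plots the FPKM of 1 integrin subunit gene (linear axis from 0) in every sham heart (blue, n = 4) and MI heart (red, n = 3), with the group mean and SD in black. For Itga5, Itga11, Itgb1, Itgb3 and Itgb5 MI replicates 1 and 3 lie far above the sham hearts and MI replicate 2 lies near them, while for Itga7 all 3 MI hearts lie just below the sham hearts.

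Genes with at least 1 FPKM in at least 3 of the 7 hearts were tested with limma on log2(FPKM + 1), which left 11431 genes and 8 of the 10 subunits. Itga8 and Itgb3 stayed below that level in too many hearts. Itga11 passed only through the 3 MI hearts, so its test, and each count or median that includes it, is a description. The p-values measure the spread between these mice. With all 7 hearts no subunit passed a Benjamini-Hochberg adjusted p of 0.05 in limma in either direction, where 0.0175% of tested genes (2 genes) passed higher and 0.00875% (1 gene) lower. At an unadjusted p under 0.05 limma gave 4 of the 8 subunits, near the 39.3% of all tested genes. Limma-voom on the recovered fragments gave 0 at the adjusted threshold and 4 at the unadjusted one, which 38% of tested genes passed. Those 4, Itga5, Itga11, Itgb1 and Itgb5, also had a log2 change over 0.5, and all were higher in MI. These lines (unadjusted p under 0.05 and a log2 change over 0.5) were passed by 17.8% of tested genes higher and by 4.8% lower, and by no subunit lower. The number of subunits past them was 2 without sham replicate 1, 2 or 3, where 12.4 to 12.9% of tested genes passed higher, and 2 without MI replicate 1 or 3, where 5.57 and 5.6% did. Under other scalings the split of all tested genes changed, to 31.7% higher and 2.32% lower after rescaling to TPM (4 subunits higher), 8.81% and 10% under quantile normalization (3 higher) and 9.65% and 9.89% under scaling by the median log-ratio (3 higher), with 0 subunits lower in each. The median log2 change was 0.59 for the 8 subunits and 0.21 for all tested genes. That 0.21 is the shift of the median gene under this scaling, and changes relative to it are given below where they matter.

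In raw FPKM every MI heart exceeded every sham heart for 2 tested subunits, Itga11 and Itgb5, as for 16.1% of tested genes. All MI hearts were below all sham hearts for 1, Itga7, as for 9% of tested genes. Without MI replicate 2, limma called 5 subunits higher (Itga1, Itga5, Itga11, Itgb1 and Itgb5) and 1 lower (Itga7) at an adjusted p under 0.05. In that comparison of 4 sham with 2 MI hearts 57% of tested genes were called higher and 14.7% lower, so most genes passed, and the median gene had a log2 change of 0.33. MI replicate 2 was singled out by its likeness to sham in these same values, so p-values without it, here and below, are descriptions.

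**Figure D2:**
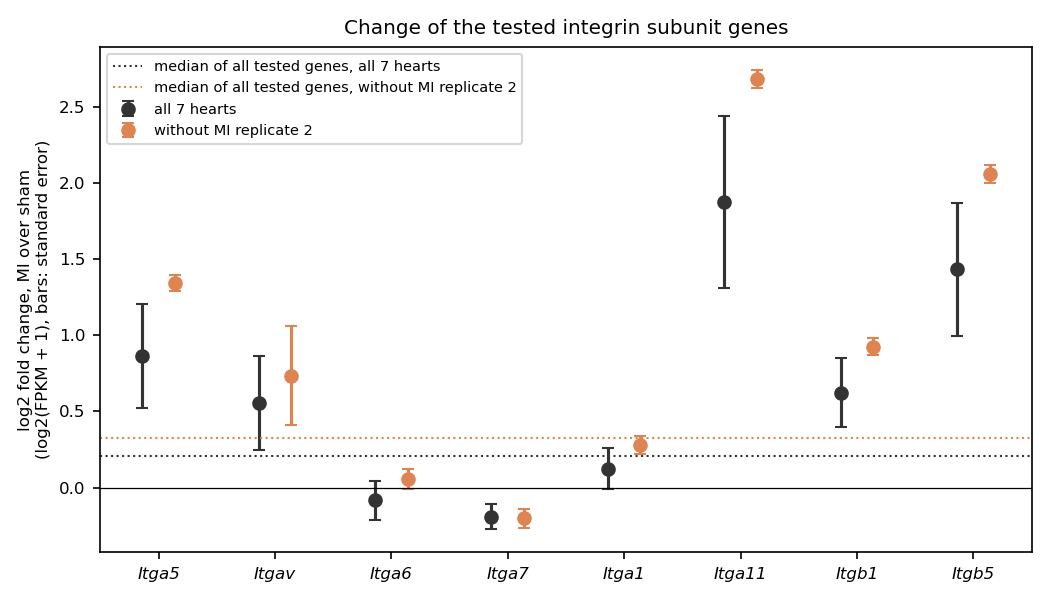
The vertical axis gives the limma log2 fold change of MI over sham on the log2(FPKM + 1) scale, with its standard error, for the 8 tested subunits with all 7 hearts (black) and without MI replicate 2 (orange), and dotted lines give the median of all tested genes. Itga11 and Itgb5 have the highest values in both comparisons, and the bars are shorter without MI replicate 2 for every gene but Itgav.

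Of the 2 collagen receptor alpha genes among the 10 subunits, Itga11 had the wider difference between groups and Itga1 had a small one. Itga11 (ENSMUSG00000032243, chr9:62677826-62783982 on GRCm38, plus strand) encodes a collagen receptor subunit known from fibroblasts. It stood at 0.765, 0.705, 0.723 and 0.672 FPKM in sham replicates 1 to 4 and at 9.94, 1.05 and 10.1 FPKM in MI replicates 1 to 3. All 3 MI hearts were above the sham hearts, but MI replicate 2 was only 1.47-fold above the sham mean. The sham values rest on 72 to 92 fragments and the MI values on 1161, 128 and 1280. The ratio of group means was 9.82 with all hearts and 14 with MI replicates 1 and 3. In limma the log2 fold change was 1.88 (SE 0.56, adjusted p = 0.108), or 1.67 relative to the median gene. Without MI replicate 2 it was 2.68 (SE 0.059, adjusted p = 5.23e-07 in limma). Since the sham level is below 1 FPKM, the added 1 understates the fold on this scale.

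Itga1 (ENSMUSG00000042284, chr13:114953096-115101964, minus strand), a collagen receptor subunit found on smooth muscle, endothelium and other cells, stood at 4.05, 3.81, 3.83 and 3.63 FPKM in sham hearts and at 4.70, 3.25 and 5.02 FPKM in MI replicates 1 to 3. MI replicates 1 and 3 were above all sham hearts and MI replicate 2 below them. The limma log2 fold change was 0.13 (SE 0.13, adjusted p = 0.470), and it turned to −0.15 under quantile normalization and −0.092 under scaling by the median log-ratio. Without MI replicate 2 it was 0.28 (SE 0.061, adjusted p = 0.00526 in limma), under the shift of the median gene in that comparison. It was 0.068 without MI replicate 1 and 0.029 without MI replicate 3. Rescaling to TPM gave 0.32, sample weights also gave 0.32, and leaving out mitochondrial genes gave 0.0079. Its exons share 685 bases with Gm49395, and how the counting split them is not given. No single factor applied to a whole library can move the log2 ratio of Itga11 to Itga1 within a heart. This ratio lay between −2.43 and −2.40 in sham hearts. It was 1.08, −1.63 and 1.01 in MI replicates 1 to 3. The groups did not overlap, and the difference of 2.57 had an exact two-sided permutation p of 0.0571, the smallest that 4 against 3 hearts can give (adjusted p = 0.143 over 5 ratios). This difference was 1.82 under quantile normalization and 1.75 with 1 added to each FPKM.

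Among the receptors for fibronectin and RGD proteins, Itga5 was higher in the same 2 MI hearts. Itga5 (ENSMUSG00000000555, chr15:103344286-103366763, minus strand), the alpha subunit of the main fibronectin receptor, stood at 12.1, 12, 11.8 and 11.4 FPKM in sham hearts and at 32.0, 11 and 31.0 FPKM in MI replicates 1 to 3. MI replicate 2 was below every sham heart, so the groups overlapped. The ratio of means was 2.09 with all hearts and 2.67 with MI replicates 1 and 3. Its limma log2 fold change was 0.86 (SE 0.34, unadjusted p = 0.0374, adjusted p = 0.115), or 0.65 relative to the median gene. With MI replicate 2 left out it was 1.34 (SE 0.053, adjusted p = 4.12e-06 in limma).

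Itgav (ENSMUSG00000027087, chr2:83724397-83806916, plus strand), the alpha subunit shared by the vitronectin receptors, stood at 2.62, 2.55, 2.23 and 0.907 FPKM in sham hearts and at 2.68, 2.43 and 5.68 FPKM in MI replicates 1 to 3. One heart in each group departed from the rest. Sham replicate 4 had 250 fragments and MI replicate 3 had 1851, against 723 to 812 in the other 5 hearts. The limma log2 fold change of 0.56 (SE 0.31, adjusted p = 0.193), or 0.35 relative to the median gene, went to 0.34 without sham replicate 4, to 0.25 without MI replicate 3 and to 0.73 (adjusted p = 0.0788) without MI replicate 2. Under quantile normalization it was 0.30, under scaling by the median log-ratio 0.36, after rescaling to TPM 0.84 and with sample weights 1.12. It did not follow the split of MI replicates 1 and 3 from the other hearts. A share of its exons, 634 bases, lies opposite Gm13684, and whether strand was used in the counting is not given. Itga8 (ENSMUSG00000026768, chr2:12106632-12301922, minus strand), a receptor subunit for nephronectin and fibronectin, stood at 0.695, 0.567, 0.673 and 0.631 FPKM in sham hearts and at 0.796, 0.571 and 0.812 FPKM in MI hearts, on 120 to 187 fragments. The ranges overlapped, the ratio of means was 1.13, and with no filter limma gave a log2 difference of 0.070 (SE 0.092, adjusted p = 0.621). This difference was 0.14 without MI replicate 2 and 0.034 without MI replicate 3. The log2 ratio of Itga8 to Itga5 differed by −0.74 between groups with an overlap (exact two-sided permutation p = 0.114, adjusted p = 0.143 over 5 ratios).

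The 2 laminin receptor alpha genes among the 10 subunits, Itga7 and Itga6, did not share the higher levels. Itga7 (ENSMUSG00000025348, chr10:128933818-128958282, plus strand), the main laminin receptor subunit of striated muscle, stood at 17.2, 19.4, 17.8 and 18.2 FPKM in sham hearts and at 15.6, 16.0 and 15.7 FPKM in MI replicates 1 to 3. All 3 MI hearts were below all sham hearts, MI replicate 2 included, and they varied little (SD 0.234 FPKM, n = 3). The ratio of means was 0.869 with all hearts and 0.862 with MI replicates 1 and 3, on 3748 to 4630 fragments. In limma the log2 fold change was −0.19 (SE 0.084, adjusted p = 0.133), or −0.40 relative to the median gene, and it was −0.0011 after rescaling to TPM (each library rescaled to the same sum of length-corrected values). Other scalings moved it the other way, to −0.43 under quantile normalization and −0.44 under scaling by the median log-ratio. With mitochondrial genes left out it was −0.33. Leaving out MI replicate 2 gave −0.20 (SE 0.062, adjusted p = 0.0230 in limma). Beside it, the cardiomyocyte marker sum was lower in MI replicates 1 and 3, by the values above, and its part in the level of Itga7 was not tested.

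Itga6 (ENSMUSG00000027111, chr2:71745616-71858416, plus strand), the laminin receptor subunit of epithelium, endothelium and platelets, stood at 5.29, 4.81, 5.22 and 4.68 FPKM in sham hearts and at 5.21, 3.64 and 5.26 FPKM in MI replicates 1 to 3. MI replicates 1 and 3 were within the sham range and MI replicate 2 below it. The limma log2 fold change was −0.084 (SE 0.13, adjusted p = 0.614), and the sign turned to 0.091 after rescaling to TPM, 0.063 with sample weights and 0.058 without MI replicate 2. It moved the other way, to −0.36 under quantile normalization, −0.31 under scaling by the median log-ratio and −0.21 with mitochondrial genes left out, and to −0.15 and −0.16 without MI replicate 1 or 3. The log2 ratio of Itga6 to Itga7 differed by 0.096 between groups (exact two-sided permutation p = 0.629, adjusted p = 0.629 over 5 ratios). That value rested on single hearts, at 0.28 without MI replicate 2, 0.0045 without MI replicate 1, 0.0011 without MI replicate 3, 0.15 without sham replicate 1, 0.047 without sham replicate 2 and 0.063 without sham replicate 4. The log2 ratio of Itga5 to Itga7, a fibronectin against a laminin receptor, ran from −0.70 to −0.51 in sham hearts. MI replicate 2 lay within that range at −0.55, whereas MI replicates 1 and 3 were at 1.04 and 0.98, and the difference of 1.11 had an exact two-sided permutation p of 0.114 (adjusted p = 0.143 over 5 ratios).

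All 3 beta subunit genes had higher means in MI. Itgb1 (ENSMUSG00000025809, chr8:128685654-128733200, plus strand) stood at 79.7, 75.7, 78.4 and 82.2 FPKM in sham hearts and at 148, 80.1 and 154 FPKM in MI replicates 1 to 3. MI replicate 2 lay within the sham range. The ratio of means was 1.61, or 1.91 with MI replicates 1 and 3, and the limma log2 fold change was 0.62 (SE 0.23, unadjusted p = 0.0274, adjusted p = 0.110), or 0.41 relative to the median gene. It was 0.92 without MI replicate 2 (SE 0.057, adjusted p = 1.97e-05 in limma).

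Itgb5 (ENSMUSG00000022817, chr16:33829665-33949338, plus strand), a partner of Itgav in a vitronectin receptor, stood at 17.7, 17.7, 18.2 and 16.8 FPKM in sham hearts and at 78.8, 20.2 and 73.8 FPKM in MI replicates 1 to 3. All MI hearts were above all sham hearts, MI replicate 2 by a ratio of 1.15 to the sham mean. The ratio of means was 3.28, or 4.34 with MI replicates 1 and 3. In limma the log2 fold change was 1.43 (SE 0.44, unadjusted p = 0.0126, adjusted p = 0.108), or 1.22 relative to the median gene, and without MI replicate 2 it was 2.06 (SE 0.059, adjusted p = 1.12e-06).

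Itgb3 (ENSMUSG00000020689, chr11:104608000-104670476, plus strand), which pairs with Itgav and, in platelets, with Itga2b, stood at 0.186, 0.246, 0.286 and 0.261 FPKM in sham hearts and at 2.80, 0.471 and 2.17 FPKM in MI replicates 1 to 3. All MI hearts were above all sham hearts, on 36 to 58 fragments in sham and 526, 92 and 442 in MI. The ratio of means was 7.41, with 10.1 for MI replicates 1 and 3 and 1.92 for MI replicate 2. It failed the filter, and with no filter limma gave a log2 change of 1.07 (SE 0.31, unadjusted p = 0.0115, adjusted p = 0.188), which a pseudocount of 0.1 moved to 2.18 and leaving out MI replicate 2 to 1.48. The 5 platelet markers summed to 9.58 to 11.2 FPKM in sham hearts and to 24.3, 10.2 and 11.9 FPKM in MI replicates 1 to 3, and their part in Itgb3 was not tested. The log2 ratio of Itgb3 to Itgb5 was −6.57, −6.17, −5.99 and −6.01 in sham hearts and −4.82, −5.42 and −5.09 in MI hearts, without overlap. The difference of 1.08, for which the exact permutation test again gave its lowest two-sided p of 0.0571 (adjusted p = 0.143 over 5 ratios), turned to −0.37 when 1 was added to each FPKM and to −0.40 under quantile normalization, which adds the same 1, since Itgb3 is below 1 FPKM in sham hearts.

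**Figure D3:**
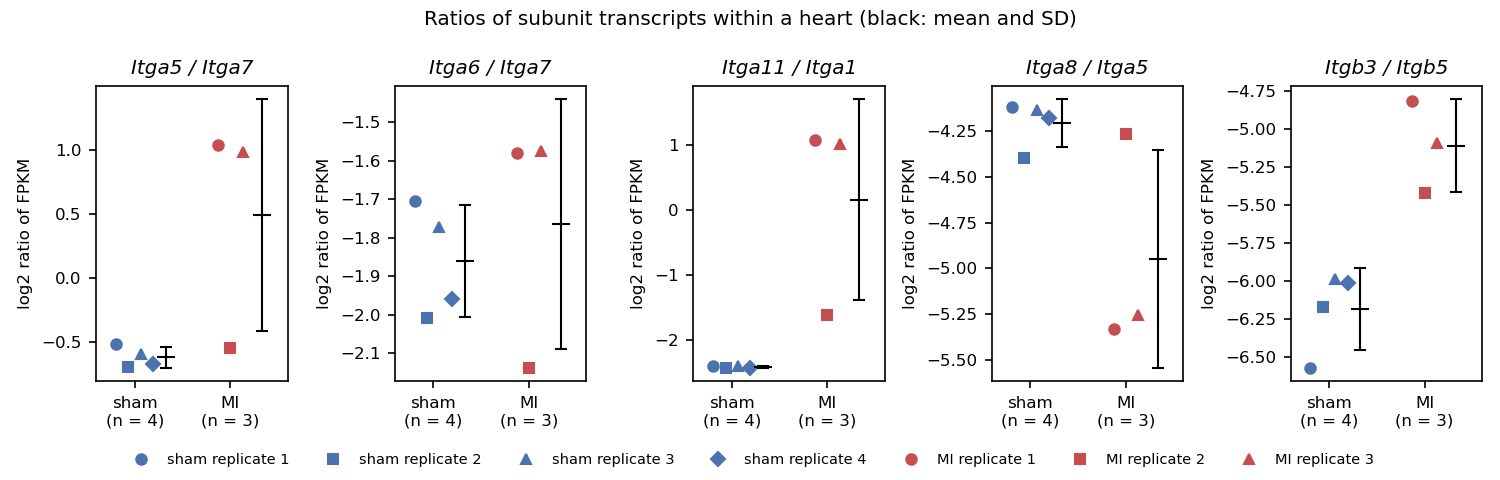
Each panel plots the log2 ratio of the FPKM of 2 subunit genes within each sham heart (blue, n = 4) and MI heart (red, n = 3), with the mean and SD in black, on axes that do not start at 0. The groups are apart for Itga11 over Itga1 and Itgb3 over Itgb5 and overlap for the other 3 ratios.

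The make-up of the alpha subunit transcripts differed between MI replicates 1 and 3 and the other 5 hearts. The 7 alpha genes summed to 40.1 to 43.7 FPKM in sham hearts and to 70.9, 38.0 and 73.6 FPKM in MI replicates 1 to 3. Itga7 made up 43.0% ± 2.22 (SD, n = 4) of that sum in the sham group. In MI replicates 1 to 3 it made up 22.0%, 42.2% and 21.3%. Itga5 made up 28.0% ± 0.491 in sham hearts and 45.1%, 28.9% and 42.2% in MI hearts, so it replaced Itga7 as the most abundant alpha transcript in MI replicates 1 and 3 but not in MI replicate 2. Itga11 made up 1.70% ± 0.0750 in sham hearts and 14%, 2.78% and 13.7% in MI hearts. Itga6 had 7.35%, 9.60% and 7.15% in MI hearts against a sham mean of 11.8%. Since shares of 1 sum were compared, a higher share of 1 gene lowers the others. Itgb1 came to 1.73 to 2.05 times the alpha sum in sham hearts and to 2.09, 2.11 and 2.09 times in MI replicates 1 to 3, so that the ratio was above the sham range in all 3 MI hearts. All 10 genes together gave 137 to 140 FPKM in sham hearts and 301, 139 and 303 FPKM in MI replicates 1 to 3.

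**Figure D4:**
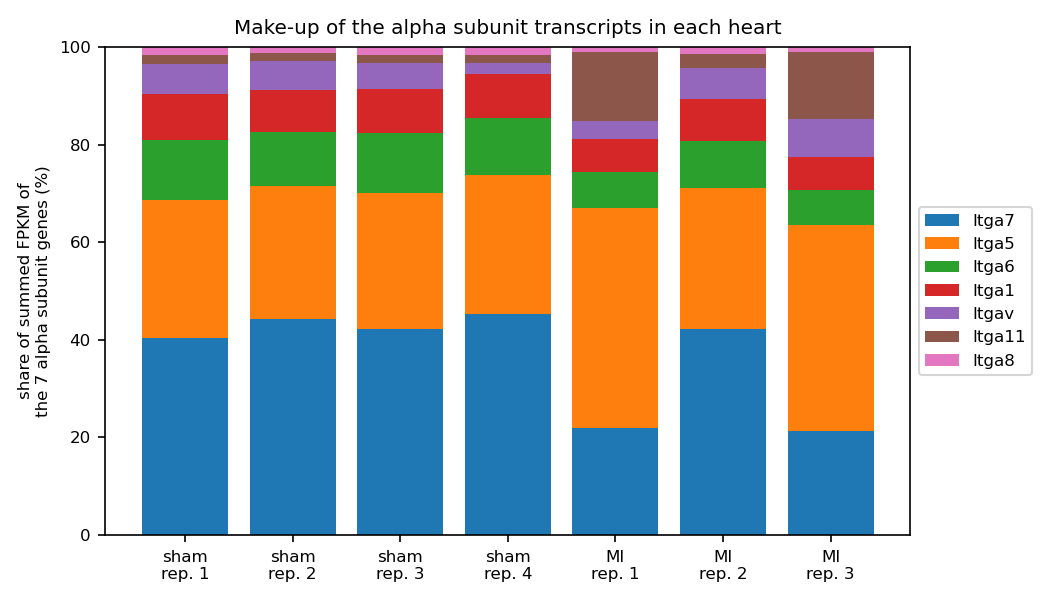
Each stacked bar gives, for 1 heart, the share (%) of the summed FPKM of the 7 alpha subunit genes that each gene takes. Itga7 takes 22.0% and 21.3% in MI replicates 1 and 3 against 42.2% in MI replicate 2, which looks like the 4 sham hearts.

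The promoters of the 4 subunits past the lines are shown because these genes were higher in the same hearts. From RefSeq (GRCm38.p6), promoters were at hand for 7 of the 10 genes, not for Itga6, Itga7 and Itgb3. The 250 bases before the RefSeq start are printed 5′ to 3′ on the strand of the gene, from chr9:62677605-62677854 (plus) for Itga11, chr15:103366792-103367041 (minus) for Itga5, chr16:33829415-33829664 (plus) for Itgb5 and chr8:128685404-128685653 (plus) for Itgb1. Capitals mark matches, on either strand, to a GC box (GGGCGG), a TEAD motif (GGAATG), a SMAD motif (CAGAC) or an AP-1 motif (TGANTCA), or to the CArG box.
Itga11: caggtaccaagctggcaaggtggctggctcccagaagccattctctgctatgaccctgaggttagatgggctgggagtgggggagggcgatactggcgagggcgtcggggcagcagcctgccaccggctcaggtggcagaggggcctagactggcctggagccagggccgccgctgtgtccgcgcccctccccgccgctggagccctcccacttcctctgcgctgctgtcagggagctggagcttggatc
Itga5: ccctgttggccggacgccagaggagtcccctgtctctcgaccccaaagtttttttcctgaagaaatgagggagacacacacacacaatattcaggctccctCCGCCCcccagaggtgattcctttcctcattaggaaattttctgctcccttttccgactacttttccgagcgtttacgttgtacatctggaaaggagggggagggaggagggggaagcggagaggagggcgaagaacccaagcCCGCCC
Itgb5: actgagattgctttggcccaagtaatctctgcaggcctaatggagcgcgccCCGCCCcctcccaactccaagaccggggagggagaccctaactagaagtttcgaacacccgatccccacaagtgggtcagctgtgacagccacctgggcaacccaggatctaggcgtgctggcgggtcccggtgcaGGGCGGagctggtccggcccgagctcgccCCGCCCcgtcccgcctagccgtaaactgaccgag
Itgb1: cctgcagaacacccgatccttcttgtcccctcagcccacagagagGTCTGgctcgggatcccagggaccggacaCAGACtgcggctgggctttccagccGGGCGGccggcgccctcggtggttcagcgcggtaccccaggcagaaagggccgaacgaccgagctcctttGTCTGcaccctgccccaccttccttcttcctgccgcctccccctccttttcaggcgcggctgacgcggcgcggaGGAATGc
Itga11 held none of the 5 motifs. Itga5 held 2 GC boxes, Itgb5 held 3, and Itgb1 held 1 GC box, 3 SMAD matches and 1 TEAD match. Among the other 3 promoters, Itga1 held 1 SMAD match and Itga8 and Itgav held none. Of 32851 mouse promoters of that length, 32.7% held a GC box, 42.2% a SMAD motif, 12.6% a TEAD motif, 6.75% an AP-1 motif and 1.47% a CArG box, so the short motifs are common. The share of G and C was 68.4% for Itga11, 55.6% for Itga5, 65.2% for Itgb5 and 68% for Itgb1, against a median of 52.4%. No match overlapped another. A match is a run of letters in this window and says nothing of binding.

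The ligands of these receptors were read from the same fit, in which 17.8% of all tested genes passed the lines higher and 4.8% lower and the median gene had a log2 change of 0.21. Of 15 listed fibrillar, basement membrane and related collagen genes 14 were tested, and 11 passed the lines higher and 0 lower, with a median log2 change of 1.94. Col1a1, a chain of type I collagen, stood at 17.1 to 23.0 FPKM in sham hearts and at 768, 40.5 and 569 FPKM in MI replicates 1 to 3 (log2 change 3.69, or 5.02 without MI replicate 2). Col3a1 and Col1a2 had log2 changes of 3.37 and 3.29. Of 18 genes for fibronectin and RGD ligands 12 were tested, and 8 passed the lines higher and 0 lower, with a median log2 change of 1.66. Postn, a matricellular protein of fibroblasts, stood at 3.12 to 4.06 FPKM in sham hearts and at 206, 10.8 and 200 FPKM in MI hearts (log2 change 4.10, or 5.47 without MI replicate 2). Fn1, fibronectin itself, and Ccn2 had log2 changes of 3.14 and 2.95. Of 15 genes for laminin chains and their basement membrane partners 12 were tested, and 5 passed higher and 0 lower, with a median of 0.39, or 0.18 above the median gene. Of these 12, 1 passed the filter only through the MI hearts, so the count is a description. Nid1, which links laminin to type IV collagen, and Lamc1, the common laminin gamma chain, had log2 changes of 0.98 and 0.66. The difference between the lists was not tested.

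Of 32 listed genes of the adhesion complex inside the cell 28 were tested, and 11 passed the lines higher and 1 lower, beside 17.8% and 4.8% of all tested genes, with a median log2 change of 0.49. Actn1, an actin crosslinker at adhesion sites, stood at 4.38 to 4.57 FPKM in sham hearts and at 25.7, 5.10 and 24.5 FPKM in MI replicates 1 to 3 (log2 change 1.54, or 2.24 without MI replicate 2). Sdc4, a proteoglycan that acts beside integrins, and Tns3, a tensin, had log2 changes of 1.22 and 1.05. Of 17 other integrin subunits 5 were tested, and 2 passed the lines higher and 1 lower, beside the same 17.8% and 4.8%. The leukocyte subunits Itgb2 and Itgam had log2 changes of 1.36 and 0.95. Itgb6, an epithelial partner of Itgav, went the other way. It stood at 3.59, 3.64, 2.81 and 2.97 FPKM in sham hearts and at 0.846, 1.73 and 0.780 FPKM in MI replicates 1 to 3, with every MI heart below every sham heart. Its limma log2 change was −1.03 (SE 0.17, unadjusted p = 0.000434, adjusted p = 0.108), and −1.22 without MI replicate 2 (SE 0.10, adjusted p = 5.71e-05 in limma). Without MI replicate 2 limma called 14 of the 14 collagens higher, 10 RGD ligands, 9 genes of the laminin list, 21 adhesion genes and 4 other integrins, against 57% of all tested genes. It called lower 1 RGD ligand, 2 genes of the laminin list, 1 adhesion gene and 1 other integrin, against 14.7% of all tested genes. The laminin list includes the dystroglycan gene Dag1, so its counts are not of laminin chains alone.

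By profile over the 7 hearts, out of 66 ligand and adhesion genes, Itga11 and Itgb5 were each most like Actn1, Itga5 was most like Emilin1, Itgb1 most like Zyx and Itgb3 most like Fn1. Itga7 was most like Dag1, the dystroglycan gene, Itga6 like Fermt2, Itga1 like Col4a1, Itga8 like Mfge8 and Itgav like Cav1. Likeness was the highest correlation of log2(FPKM + 1), and it was weakest for Itga6 and next weakest for Itgav. No coefficient is given because MI replicates 1 and 3 formed a cluster of their own.

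Markers of other cells differed between the hearts as well, though not all in the same way. Their counts past the lines stand beside 17.8% of all tested genes higher and 4.8% lower. The fibroblast markers summed to 325 to 380 FPKM in sham hearts and to 828, 440 and 856 FPKM in MI replicates 1 to 3, with 7 of 8 genes past the lines. The myofibroblast markers summed to 61.3 to 88.1 FPKM in sham hearts and to 459, 70.0 and 479 FPKM in MI hearts, with 3 of 4 tested genes past the lines. The macrophage markers summed to 199 to 252 FPKM in sham hearts and to 1317, 240 and 1127 FPKM in MI hearts, with 8 of 8 past the lines, all higher. Of the cardiomyocyte markers 4 of 8 passed the lines lower. Endothelial markers ranged from 137 to 155 FPKM in sham hearts and stood at 174, 130 and 188 FPKM in MI hearts, with 1 of 8 past the lines. Mural cell markers stood at 199 to 216 FPKM in sham hearts and at 180, 204 and 182 FPKM in MI hearts, with 1 of 5 tested genes lower. The neutrophil markers, 1 of 5 at 0 in every sham heart, summed to 0.300 to 1.29 FPKM in sham hearts and to 13.8, 0.485 and 7.33 FPKM in MI hearts. Mesothelial markers summed to 3.83 to 8.81 FPKM in sham hearts and to 25.9, 18.1 and 38.5 FPKM in MI hearts, with 4 of 4 tested genes past the lines, and this was the one of these sums in which MI replicate 2 stood furthest above the sham hearts in proportion. In the myofibroblast, macrophage and mesothelial lists 1 tested gene each passed the filter only through the 3 MI hearts, so these counts are descriptions. The part of any of these cell types in the subunit levels was not tested.

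**Figure D5:**
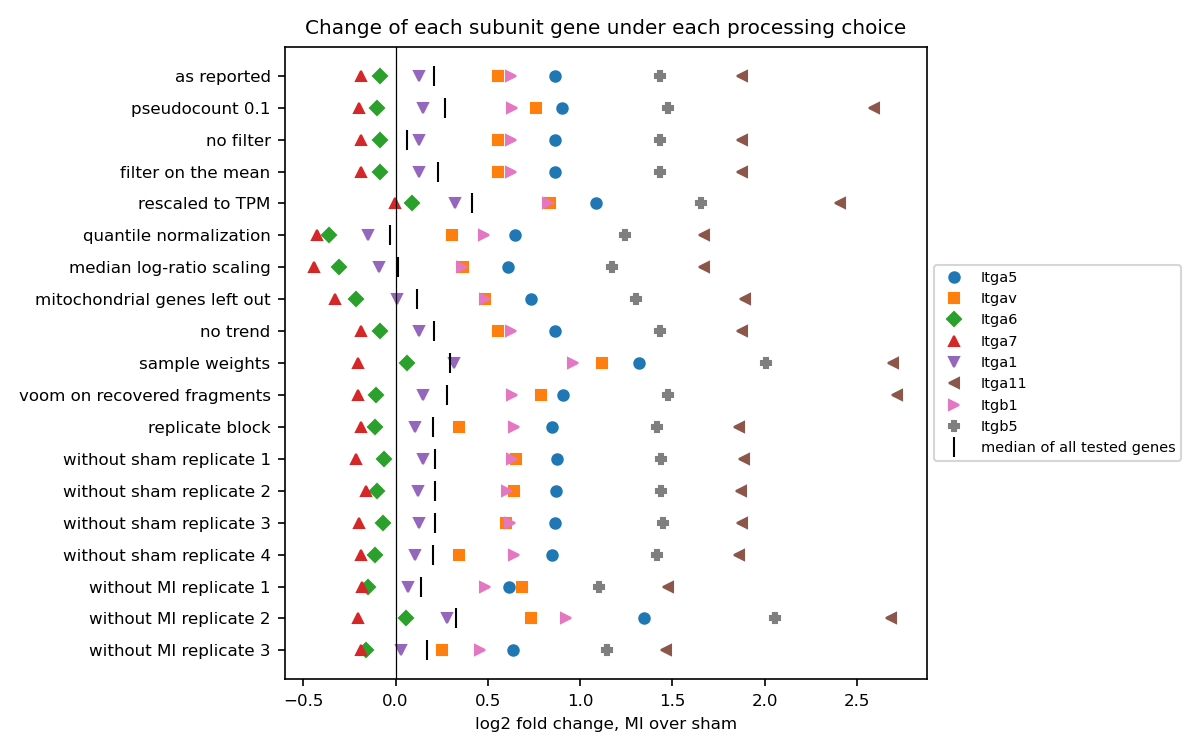
The horizontal axis gives the log2 fold change of MI over sham for each of the 8 tested subunits under the reported processing and 18 others (rows), and a bar marks the median of all tested genes. Itga5, Itga11, Itgav, Itgb1 and Itgb5 stay above 0 in every row, Itga7 stays below 0, and Itga1 and Itga6 change sign.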

How the data were processed

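RNA from the myocardium of 7 mice (4 sham, 3 MI) was sequenced, and groups were taken from the labels. The authors deposited 1 table of FPKM, which they normalized for transcript length and fragment total. The submitters' processing notes name CASAVA 1.8, HISAT2, SAMtools 1.3.1, edgeR and the mm10 build, while the annotation, the counter and the use of strand are not given in the sources used here. All value columns were used. Gene symbols and positions came from GENCODE M21 for 52073 of 56980 IDs. Values fall on whole-fragment steps, from which depth (19977713 to 23610870 fragments) and fragments were recovered for 11430 of the 11431 tested genes, within 0.05 of a whole number. The lengths behind FPKM exceed the M21 exon lengths of the subunits.

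MI was compared with sham over all genes with limma 3.58.1 in R 4.3.3 (lmFit, eBayes with trend) on log2(FPKM + 1), for genes at 1 FPKM or more in at least 3 hearts, with Benjamini-Hochberg adjustment at 0.05. A looser criterion was an unadjusted p under 0.05 with a log2 change over 0.5. The 5 ratios were compared by an exact permutation test. The named genes were all subunits, the 3 genes of widest change in each ligand, adhesion and integrin list, and the most alike gene of each subunit. Of these, 1 gene is not reported here. The subunits and lists were chosen with earlier results of these data known. The alternatives were another pseudocount, other filters, 4 other scalings, no trend, sample weights, voom on recovered fragments, a replicate block and leaving out each heart. The tests were checked on simulated data.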

Additional observations from a re-analysis of the deposited data

Results flagged for a closer look

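One value stood apart within its group. The share of Itga8 in the summed FPKM of the 7 alpha subunit genes was 1.3% in sham replicate 2 and 1.57 to 1.63% in the other sham hearts, so that the gap to the nearest heart was 0.835 of the range of the group. Of the 22 sets of sham values examined in this way 1 was past the limit, and chance alone puts about 1 in 20 there. The share rests on 120 to 187 fragments of Itga8 per heart.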

How the results depend on the processing

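Of 144 repeats of the subunit log2 fold changes over 18 settings 139 kept their direction, 5 turned and 13 passed the adjusted p. Itga1 turned to −0.15 under quantile normalization and −0.092 under scaling by the median log-ratio, and Itga6 turned to 0.091 after rescaling to TPM, 0.063 with sample weights and 0.058 without MI replicate 2 (range −0.16 to 0.058 with 1 heart left out). The ratio of Itgb3 to Itgb5 turned to −0.37 with 1 added to each FPKM and −0.40 under quantile normalization, and the other 48 of 50 ratio repeats kept their direction. Subunits called higher at the adjusted p were 6 with sample weights and 0 to 5 with 1 heart left out, 5 being without MI replicate 2. The fits with weights and without MI replicate 2 called 87.1% and 71.7% of all tested genes. Those called lower were 1 with sample weights and 0 to 1 with 1 heart left out. The weights put nearly all of the MI group on MI replicate 3. Subunits past the looser lines were 2 to 4 with 1 heart left out, with 2 without sham replicate 1, 2 or 3 or MI replicate 1 or 3, while 5.57 to 35% of all tested genes passed higher. Subunits whose MI hearts were all below the sham hearts were 0 after rescaling to TPM (5.57% of tested genes), 3 under quantile normalization (15%), and 2 both under scaling by the median log-ratio (13.4%) and without mitochondrial genes (10.6%). Those with all MI hearts above were 2 to 6 with 1 heart left out, 6 being without MI replicate 2, where 61.9% of tested genes did so against 16.9 to 19.9% without another heart. The causes were not tested.

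The labels do not say whether the replicate numbers pair the hearts. Same-numbered hearts deviated from their group means with r of 0.074, −0.016 and −0.080. Hearts of other numbers did so with r from −0.091 to 0.081. With 3 MI hearts of which 1 stood apart, these values cannot decide on a pairing. With the replicate block 0 subunits passed the adjusted p in limma, 3 passed the unadjusted p (20.4% of all tested genes), and 3 passed the lines higher (13.4% of all). The block left sham replicate 4 out of the comparison.

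Itgb3, Itga8 and sham Itga11 rest on fewer than 190 fragments in most hearts, and 3 MI hearts of which 1 resembled sham set the precision of all comparisons.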
